A study of Mus musculus with 75 samples.

Results

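The genes described here are 8 long noncoding RNA genes, Malat1, Neat1, Meg3, Rian, Mirg, Miat, Snhg11 and Kcnq1ot1, of the 55401 gene identifiers counted in RNA from sorted nuclei of the mouse nucleus accumbens, the ventral striatal region that receives dopamine input during reward. They were picked by symbol as RNA retained in the nucleus, because nuclei rather than whole cells were sequenced, and all 8 were found. The mice were male and carried a Cre-dependent nuclear-tagged GFP (LSL-eGFP::L10a) together with D1-Cre or D2-Cre, which mark nuclei of medium spiny neurons with the D1 or the D2 dopamine receptor; D2-Cre lines can also mark cholinergic interneurons. Each mouse received saline or 20 mg/kg cocaine intraperitoneally on 10 days, spent 30 days in the homecage, received a challenge injection, and was killed 1 h later. Group names give the daily treatment as the first letter and the challenge as the second (C for cocaine, S for saline). The D1 line gave 10 CC, 8 CS, 9 SC and 10 SS libraries, and the D2 line gave 10 CC, 10 CS, 9 SC and 9 SS libraries. All groups, SS included, share the GFP allele, a Cre allele, the injections and the withdrawal period. Strain background, age and any pooling of animals are not given in the sources used here, so p-values measure the spread between these libraries.

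Many long noncoding RNAs stay in the nucleus, and several are thought to act close to where they are made. Malat1 gathers in nuclear speckles beside splicing factors, Neat1 is the scaffold of paraspeckles, and Kcnq1ot1 silences its imprinted neighbours on the paternal chromosome. Meg3, Rian and Mirg are transcribed in 1 direction along the imprinted Dlk1-Dio3 domain from the maternal chromosome, and their transcripts carry snoRNA and microRNA sequences. Miat, also called Gomafu, sits in its own nuclear domains in neurons, and Snhg11 is a snoRNA host gene. Neat1 is induced by several kinds of stress in cultured cells.

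In mm10, the build of the deposited counts, Malat1 (ENSMUSG00000092341.3) spans chr19:5795690-5802672 and Neat1 (ENSMUSG00000092274.3) chr19:5824708-5845478, both on the minus strand. Meg3 (ENSMUSG00000021268.17) spans chr12:109541001-109571726, Rian (ENSMUSG00000097451.11) chr12:109603940-109661716 and Mirg (ENSMUSG00000097391.8) chr12:109729764-109749460, all on the plus strand. Miat (ENSMUSG00000097767.8) spans chr5:112213228-112229395 on the minus strand and Snhg11 (ENSMUSG00000044349.16) chr2:158375638-158386145 on the plus strand, where GENCODE lists it as protein coding. Kcnq1ot1 (ENSMUSG00000101609.2) spans chr7:143203458-143296549 on the minus strand and lies antisense to Kcnq1, which it overlaps. The counting covered whole gene spans, introns included, and its strand setting is not given in the sources used here, so reads of Kcnq1ot1 and Kcnq1 may not be told apart. Within their spans on the same strand lie 18 small annotated genes for Rian, 14 microRNA genes for Mirg and 4 small genes for Meg3, and reads there could be assigned to either.

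Promoter sequences were read from RefSeq for 7 of the 8 genes (build GRCm38.p6, 250 bases before to 50 after the start), all but Neat1. They were searched on both strands for the cAMP response element, the palindrome TGACGTCA bound by CREB, and for its core TGACG, which the palindrome contains on each strand. The 3 promoters that hold the core are shown, with the element in capitals.
Meg3: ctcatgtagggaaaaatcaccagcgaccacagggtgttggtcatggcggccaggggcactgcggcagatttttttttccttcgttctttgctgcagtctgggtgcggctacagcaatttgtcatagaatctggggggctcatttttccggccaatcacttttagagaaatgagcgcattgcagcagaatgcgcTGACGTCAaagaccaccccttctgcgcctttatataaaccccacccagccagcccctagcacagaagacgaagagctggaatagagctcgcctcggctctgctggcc
Malat1: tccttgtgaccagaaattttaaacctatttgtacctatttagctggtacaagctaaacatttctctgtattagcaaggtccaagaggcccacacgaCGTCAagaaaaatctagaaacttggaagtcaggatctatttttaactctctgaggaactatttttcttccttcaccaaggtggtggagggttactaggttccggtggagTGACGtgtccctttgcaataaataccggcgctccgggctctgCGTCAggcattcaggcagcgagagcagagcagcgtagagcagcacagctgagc
Kcnq1ot1: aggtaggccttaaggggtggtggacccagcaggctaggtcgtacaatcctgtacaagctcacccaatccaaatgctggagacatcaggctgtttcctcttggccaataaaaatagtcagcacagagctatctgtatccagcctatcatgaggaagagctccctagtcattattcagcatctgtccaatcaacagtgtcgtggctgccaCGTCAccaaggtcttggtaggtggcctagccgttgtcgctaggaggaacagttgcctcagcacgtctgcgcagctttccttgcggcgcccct
The Meg3 window is chr12:109540746-109541045 (plus strand), the Malat1 window chr19:5802623-5802922 (minus strand) and the Kcnq1ot1 window chr7:143296498-143296797 (minus strand). Counting the start base as 0, the palindrome of Meg3 ran from -57 to -50 and was followed by TATAAA at -25. Malat1 held 3 cores, beginning at -154, -45 and -3, and Kcnq1ot1 held 1 beginning at -42. Of all 32851 promoters of this length, 1.79% hold the palindrome and 20.81% the core. These letters were not in the windows of Rian, Mirg, Miat and Snhg11, nor in that of a second Meg3 start. The windows of Mirg (chr12:109734731-109735030) and Miat (chr5:112228899-112229198) lie inside the counted spans, which begin at 109729764 and, on the minus strand, at 112229395. For these genes the RefSeq start searched is thus not the start of the counted span. A match is a description of the sequence and says nothing of binding in these nuclei.

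The imprinted domain is shown through microRNAs that lie inside the counted spans, 2 genes in Meg3, 3 in Rian and 14 in Mirg in RefSeq. Their seeds (bases 2 to 8) are in capitals, with the host gene before each name.
Meg3, mmu-miR-770-5p: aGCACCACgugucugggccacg
Rian, mmu-miR-370-3p: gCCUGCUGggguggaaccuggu
Mirg, mmu-miR-134-5p: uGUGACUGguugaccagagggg
Mirg, mmu-miR-410-3p: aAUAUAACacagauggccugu
Mirg, mmu-miR-453: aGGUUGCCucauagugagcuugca
Mirg, mmu-miR-496a-5p: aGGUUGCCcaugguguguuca
The 26 mature microRNAs of Mirg held 25 different seeds, and the 1 shared seed was that of miR-453 and miR-496a-5p. The values below are those of the host spans, not of the microRNAs.

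Sequencing depth ranged from 19825 to 34870414 counts per library with a median of 14893119, and 71 of the 75 libraries held at least 1000000 counts. Levels are given as CPM, counts scaled to a library total of 1000000. The density of counts in 1971 olfactory and vomeronasal receptor genes, which are not known as striatal genes, was taken as background and corresponded to 3.94 to 69.8% of all counts in these 71 libraries, median 44.5%. The background share averaged 44.9 ± 21.2% in D1 CC, 55.8 ± 18.9% in D1 CS, 23.4 ± 17.6% in D1 SC and 45.2 ± 11.5% in D1 SS libraries (SD, n = 10, 8, 9 and 10). In the D2 line it averaged 40 ± 19.6% in CC, 34.6 ± 19.8% in CS, 33.7 ± 19.6% in SC and 43.3 ± 16.8% in SS libraries (SD, n = 10, 10, 9 and 9). Raw Drd2 counts exceeded raw Drd1 counts in 16 of the 37 libraries labelled D1. These were 4 of 10 in CC, 4 of 8 in CS, 6 of 9 in SC and 2 of 10 in SS. The ratio lay on the D2 side of the midpoint between the medians of the lines in D1 CC replicates 4 and 9, D1 CS replicate 4 and D1 SC replicate 5. Raw counts cover whole gene spans and were not corrected for span length or background, so an excess of Drd2 alone does not settle the label. In D1 CC, replicates 4, 7, 9 and 10 held 8735, 5402, 10132 and 8908 Drd2 counts, against 662 to 1059 in the other 6 libraries. Of these 4, replicates 7 and 10 passed the quality rule given below. The source of their Drd2 counts was not tested. D1 below stands for that label. In the series 17 libraries of the series failed a rule on depth, genes detected, the ratio of Drd1 to Drd2 and correlation with the other libraries of the line. Fewer nuclei of a type and less RNA per nucleus cannot be told apart in these bulk samples.

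Malat1 was by far the most abundant of the 8 genes, and together they took 0.172 to 1.70% of all counts (median 0.67%) in the 71 deeper libraries. Per kilobase of gene span, Malat1 had a median of 611 CPM per kb. Snhg11 (39.4 CPM per kb) and Meg3 (38.9 CPM per kb) followed at nearly the same level, then Rian (10.5) and Mirg (3.17 CPM per kb). Kcnq1ot1 (1.08 CPM per kb), Miat (0.795) and Neat1 (0.742 CPM per kb) were lowest. Across libraries Snhg11 (9.80 to 127 CPM per kb) and Meg3 (8.31 to 169 CPM per kb) covered overlapping ranges. So did Kcnq1ot1 (0.440 to 2.57 CPM per kb), Miat (0.327 to 2.87) and Neat1 (0.200 to 3.25 CPM per kb). Relative to background of the same library, the median density was 1664 times for Malat1, 116 times for Meg3, 113 times for Snhg11, 30.9 times for Rian and 9.42 times for Mirg. It was only 2.91 times for Kcnq1ot1, 2.65 times for Miat and 2.07 times for Neat1. Neat1 stood under 2 times background in 31 of 71 libraries, Miat in 24 and Kcnq1ot1 in 9, while the other 5 genes did so in 0 libraries. At the median, background of that density equals 48.4% of the Neat1 counts, 37.7% of the Miat counts and 34.3% of the Kcnq1ot1 counts, against 0.0601% of the Malat1 counts.

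**Figure D1:**
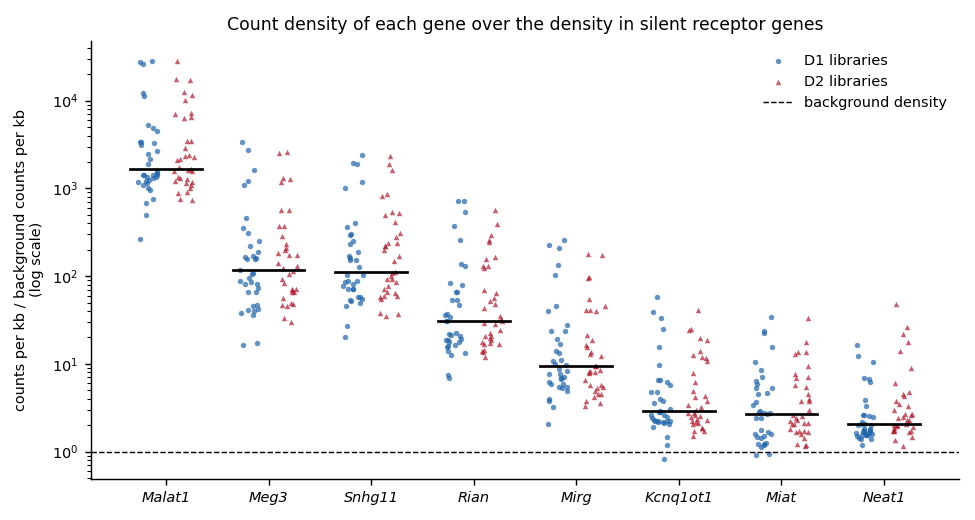
Count density of each gene over the background density of the same library (log axis), 1 point per library with at least 1000000 counts, circles for D1 and triangles for D2, bars at the medians. Malat1 stood at a median of 1664 times background and Neat1 at 2.07 times.

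Across the 71 libraries, the level of 6 genes followed the background share closely. Part of this is built in, because background counts are in the total that CPM divides by. A gene well above background therefore falls in CPM as the share rises. The permutation p-values below take no account of that shared total, so they do not show a relation beyond it. Rian had the closest relation, with Pearson's r = -0.938 and Spearman's rho = -0.954 between its log2 CPM and the share (permutation p = 1e-05 each, the smallest the resampling can give, adjusted p = 1.333e-05 over the 8 genes). Without the 2 libraries farthest from the median share r was -0.934, and it was -0.916 within the D1 line and -0.971 within the D2 line. Malat1 had r = -0.796 and rho = -0.848, Meg3 r = -0.718 and rho = -0.709, Mirg r = -0.842 and rho = -0.826, Snhg11 r = -0.858 and rho = -0.906, and Kcnq1ot1 r = -0.584 and rho = -0.589 (permutation p = 1e-05 each). Without the 2 farthest libraries these 5 values of r ranged from -0.860 for Snhg11 to -0.629 for Kcnq1ot1. Miat followed it more weakly (r = -0.300, permutation p = 0.0106, adjusted p = 0.0122, rho = -0.414, r = -0.352 without the 2 farthest). On the TMM-scaled CPM of the fits below, given as a description, rho was -0.753 for Miat, -0.843 for Kcnq1ot1 and -0.173 for Neat1 (0.0136 within D1 and -0.327 within D2), and -0.834 to -0.965 for the other 5 genes. On unscaled CPM Neat1 did not pass this test (r = 0.166, permutation p = 0.169, rho = 0.221, permutation p = 0.0655, r = 0.0522 without the 2 farthest), with r = 0.518 within D1 and r = -0.0553 within D2. After the background was subtracted from both the gene and the total, the coefficient of variation over the 71 libraries was 0.201 for Rian, against 0.471 before, and 0.211 for Malat1, against 0.354 before. It was 0.474 for Meg3, against 0.680 before, and 0.772 for Neat1, against 0.582 before. After the subtraction, Spearman's rho with the share was -0.640 for Rian, -0.476 for Mirg, -0.391 for Miat, -0.362 for Snhg11 and -0.300 for Meg3. It was -0.275 for Kcnq1ot1, 0.204 for Malat1 and 0.171 for Neat1, so the subtraction did not remove the relation in every gene.

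**Figure D2:**
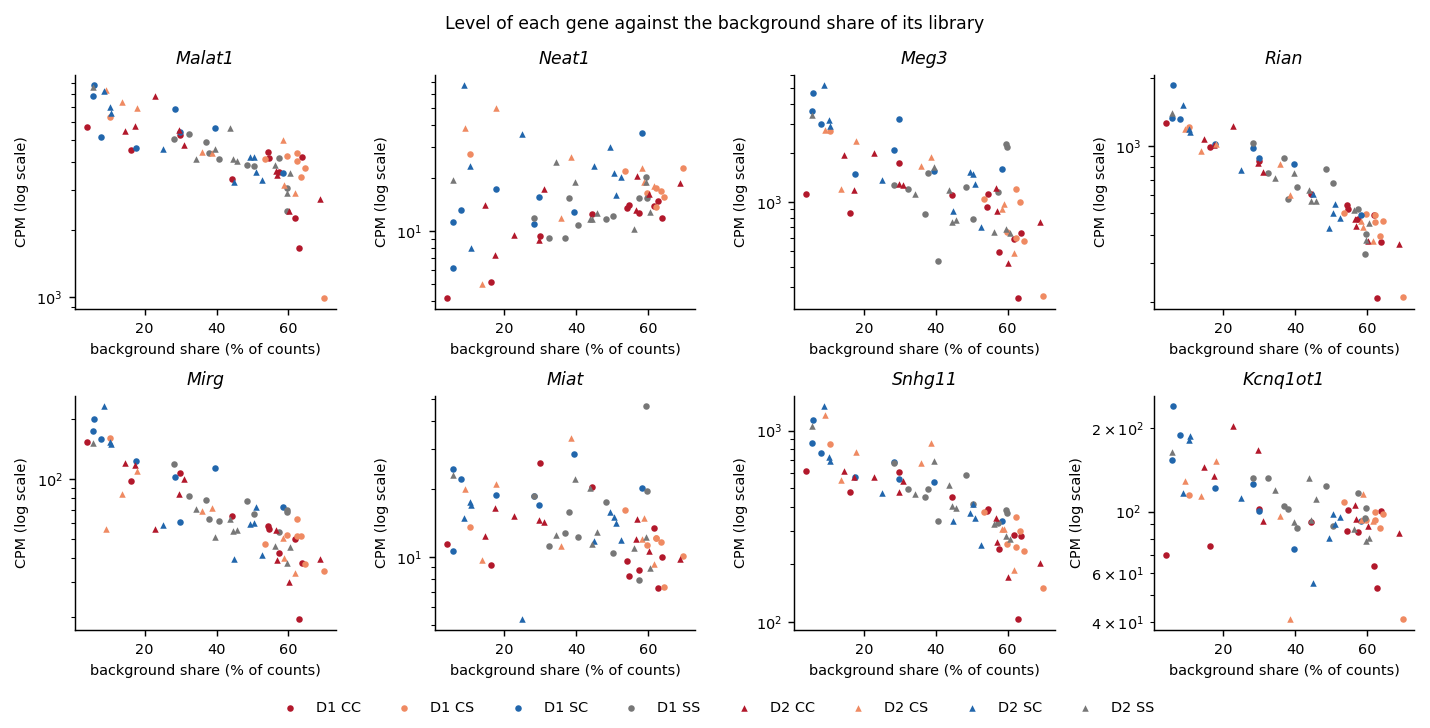
CPM of each gene (log axis) against the background share of the library in percent, 71 libraries, coloured by group. Rian runs in a narrow band (r = -0.938), whereas Neat1 shows no such band (r = 0.166).

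In D1 nuclei, SC, in which the challenge was the first cocaine the mice met, was set against SS, which had none. All 8 genes had positive fitted differences, and 7 of 8 were called higher by edgeR's quasi-likelihood test at an adjusted p below 0.05, against 9.7% of the 37721 genes tested called higher and 1.64% called lower. Meg3 had the largest difference of the 8. It ranged from 1484 to 6843 CPM in SC libraries (median 2987, n = 9), against 435 to 2273 CPM in SS libraries (median 1220, n = 10). All 9 SC libraries lay above the SS median and 5 above the highest SS library, so the groups overlapped in part. The fitted Meg3 difference was 2.06 ± 0.45 (log2 ± SE, a 4.16-fold difference, edgeR adjusted p = 0.00457).

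Malat1 reached 3578 to 8797 CPM in D1 SC libraries (median 5687), against 2420 to 5347 CPM in SS libraries (median 4153), with 6 of 9 SC libraries above every SS library. Its fitted difference was 1.22 ± 0.34 (log2 ± SE, edgeR adjusted p = 0.0154). Rian ranged from 491 to 1866 CPM in SC (median 1016), against 329 to 1031 CPM in SS (median 668), a difference of 1.42 ± 0.41 (edgeR adjusted p = 0.0204). Mirg, the most distal of the 3 genes in the domain, ranged from 60.3 to 201 CPM in SC (median 113), against 54.1 to 119 CPM in SS (median 68.8), and differed by 1.39 ± 0.43 (edgeR adjusted p = 0.0299). In each of these 3 genes the groups overlapped, with 8 of 9 SC libraries above the SS median. Snhg11 differed by 1.56 ± 0.41 (log2 ± SE, edgeR adjusted p = 0.0124), with medians of 682 CPM in SC and 433 CPM in SS. Kcnq1ot1 differed by 1.15 ± 0.29 (edgeR adjusted p = 0.00872), with medians of 126 CPM in SC and 104 CPM in SS. Neat1 was called at 0.66 ± 0.22 (edgeR adjusted p = 0.0476), although its unscaled medians were 12.9 CPM in SC and 12.1 CPM in SS and only 5 of 9 SC libraries lay above the SS median. Miat did not pass (0.84 ± 0.29, edgeR adjusted p = 0.0532), with medians of 20.0 CPM in SC and 14.2 CPM in SS.

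**Figure D3:**
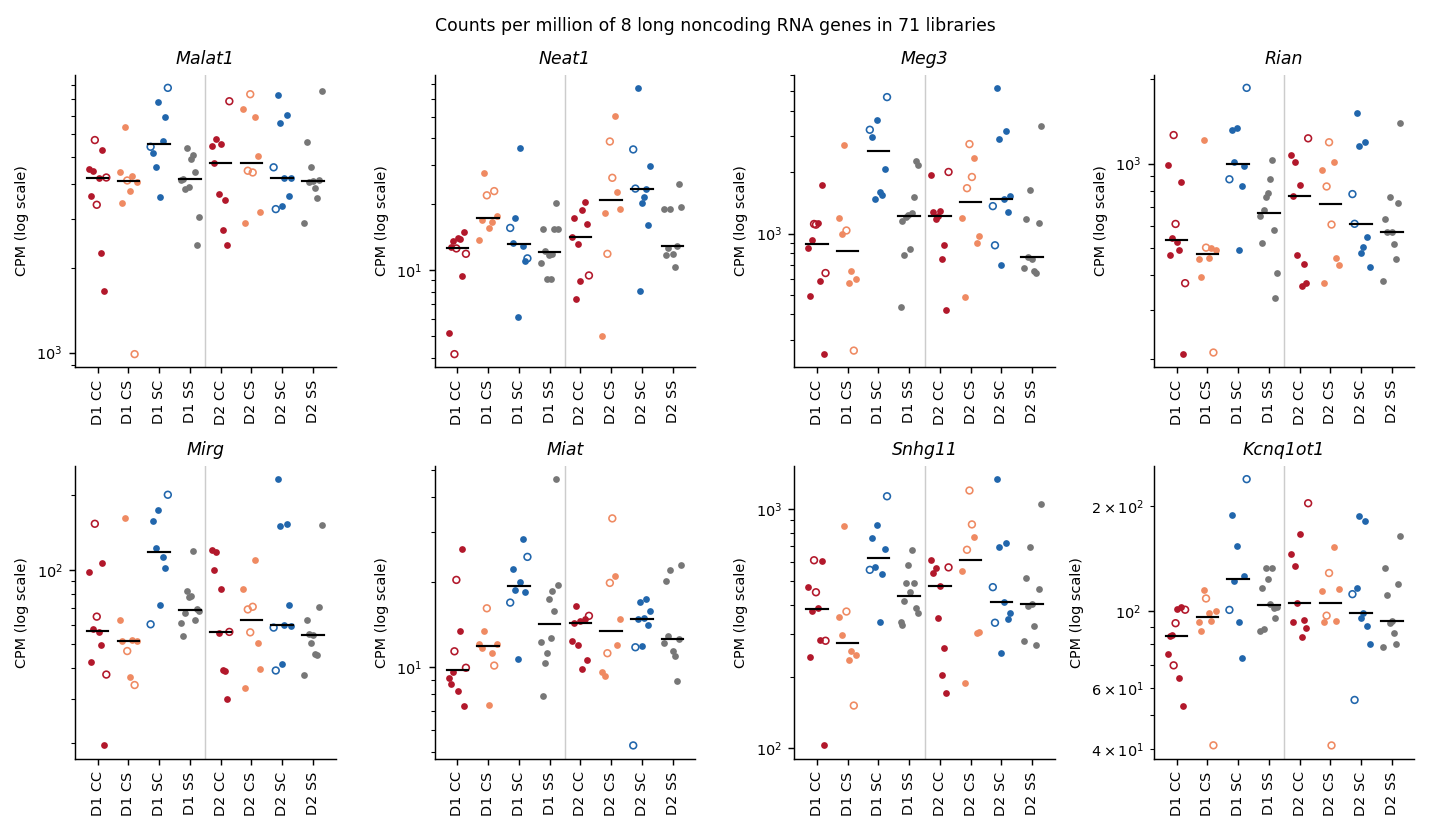
CPM of the 8 genes (log axis) by line and treatment group, 1 point per library with at least 1000000 counts, bars at the medians, open circles for libraries failing the quality rule. Meg3 in D1 SC stands above most D1 CC libraries and most D1 SS libraries, and Neat1 in D1 CC lies below most D1 CS libraries.

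The D1 SC group also had the lowest mean background share, and the size of these differences moved with how that was handled. With the background share as a covariate, edgeR called 0 of 8 genes (2 at an unadjusted p below 0.05) and 0.0106% of all genes, and the fitted Meg3 difference was 0.89 while that of Rian was 0.22 and that of Mirg 0.18 (log2). Scaling by total count in place of TMM, edgeR's trimmed mean of M-values, placed the median of all genes at -0.53, against -0.07 under TMM, and called 0 of 8 and 0.708% of all genes, with Meg3 at 1.27 (log2, edgeR adjusted p = 0.0561). In background-subtracted CPM, 0 of 8 genes (1 at an unadjusted p below 0.05) passed an exact two-sided permutation test over libraries with adjustment over 15969 genes, where 0.576% of genes passed higher and 2.32% lower. There Meg3 averaged 3458 ± 1056 CPM in D1 SC and 2550 ± 1643 CPM in D1 SS (SD, n = 8 and 10, exact permutation p = 0.193), and Mirg averaged 157 ± 39.8 CPM in SC and 123 ± 23.9 CPM in SS (exact permutation p = 0.0395, adjusted p = 0.173). Without the 16 D1 libraries that held more Drd2 than Drd1 counts (3 SC and 8 SS libraries left), edgeR called 0 of 8 genes (3 at an unadjusted p below 0.05) and 0% of all genes, with all 8 differences positive and Meg3 at 1.67 ± 0.58 (log2 ± SE, edgeR adjusted p = 0.491). Without the 17 failing libraries edgeR called 2 of 8 and 7.78% of all genes, the 2 being Meg3 (1.53) and Mirg (1.40). Leaving out any 1 of D1 CS replicate 5 and D1 SC replicates 2, 4, 5 and 9 left 1 of 8 called, and leaving out D1 SS replicate 3 left 2. D1 SC replicate 5 is a library of 651445 counts. Meg3 was called in each of the 37 fits that left out 1 D1 library.

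Within D1 nuclei given a cocaine challenge, CC was set against SC, which asks what differs with a cocaine history. All 8 fitted differences were negative and 6 of 8 genes were called lower by edgeR, against 7.86% of the 37721 genes called lower and 2.62% higher. Both this comparison and the preceding one use the SC libraries. Meg3 ranged from 255 to 1740 CPM in CC (median 887, n = 10), against 1484 to 6843 CPM in SC (median 2987, n = 9), and 9 of 10 CC libraries lay below the lowest SC library. Its fitted difference was -2.31 ± 0.46 (log2 ± SE, edgeR adjusted p = 0.00209). Kcnq1ot1 ranged from 53.2 to 102.2 CPM in CC (median 84.7), against 73.3 to 239 CPM in SC (median 126), and all 10 CC libraries lay below the SC median. It differed by -1.37 ± 0.29 (edgeR adjusted p = 0.00291). Snhg11 (-1.51 ± 0.41, edgeR adjusted p = 0.0163), Miat (-1.07 ± 0.29, adjusted p = 0.0158), Neat1 (-0.82 ± 0.22, adjusted p = 0.0164) and Malat1 (-1.04 ± 0.34, adjusted p = 0.0411) were also called lower. Rian (-1.14 ± 0.41, edgeR adjusted p = 0.0613) and Mirg (-1.11 ± 0.43, edgeR adjusted p = 0.0769) did not pass, whereas DESeq2 called 8 of 8, with Rian at an adjusted p of 0.00949 and Mirg at 0.017. DESeq2 also called more genes as a whole, 7281 of 45625 in either direction, against 3955 of 37721 by edgeR. Markers of other cells moved in this comparison too. By edgeR, 3 of 6 D2 neuron markers were called higher in CC (Penk 2.30, P2ry1 1.30 and Adora2a 1.22), and their sum was 194 to 2310 CPM in CC (median 1058) and 117 to 530.2 CPM in SC (median 285). Of 7 cortical glutamatergic neuron markers, 3 were called lower in CC (Neurod2 -2.10, Slc17a7 -2.08 and Tbr1 -1.08), with a sum of 23.2 to 262 CPM in CC and 37.6 to 355 CPM in SC. Called lower in CC were also 3 of 10 medium spiny neuron, 3 of 9 astrocyte, 2 of 10 oligodendrocyte, 1 of 8 microglia and 1 of 8 interneuron markers, and called higher 1 oligodendrocyte and 3 interneuron markers. Of the D1 neuron and the vessel and choroid plexus markers, 7 each, 0 were called. The part of these cells in the differences of the 8 genes was not tested.

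Meg3 and Kcnq1ot1 were called lower in D1 CC than in D1 SC under each of 7 other settings of edgeR or DESeq2, whereas each of the other 6 genes was without a call in at least 1 of the 8 fits. In a further fit, without the libraries holding more Drd2 than Drd1 counts (6 CC and 3 SC libraries left), edgeR called 0 of 8 genes (3 at an unadjusted p below 0.05) and 0% of all genes, with all 8 differences negative, Meg3 at -1.73 ± 0.62 (edgeR adjusted p = 0.523) and Kcnq1ot1 at -1.21 ± 0.41 (log2 ± SE, edgeR adjusted p = 0.50). With the background share as a covariate Meg3 differed by -1.48 (log2, edgeR adjusted p = 0.00572), and Neat1, Miat and Kcnq1ot1 were also called, 4 of 8 in all and 19% of all genes. With total-count scaling Meg3 differed by -1.82 (edgeR adjusted p = 0.00439), and Snhg11 and Kcnq1ot1 were also called, 3 of 8 in all and 9.05% of all genes. In background-subtracted CPM, Meg3 averaged 1604 ± 621 CPM in CC and 3458 ± 1056 CPM in SC (SD, n = 10 and 8, ratio 0.464, exact permutation p = 0.00032, adjusted p = 0.0161). Rian averaged 1069 ± 228 CPM in CC and 1386 ± 262 CPM in SC on that scale (ratio 0.771, exact permutation p = 0.00263, adjusted p = 0.0308). These 2 of 8 passed, against 3.61% of the 15969 genes lower and 11.8% higher, and the median ratio of all genes was 1.24. Over the 71 libraries, Rian on this scale still followed the background share (Spearman's rho -0.640). The part of the share in its difference was not tested. Malat1 had a ratio of 0.928 in background-subtracted CPM (exact permutation adjusted p = 0.687), and the other 5 genes had ratios between 0.452 and 0.776 without passing. With only passing libraries no gene of the 15969 passed (20.1% at an unadjusted p below 0.05), and Meg3 had a ratio of 0.530 (n = 7 and 6, exact permutation p = 0.00874, adjusted p = 0.206). That test had 1716 permutations, against 43758 with all deeper libraries, so its p-values are coarse for an adjustment over 15969 genes. A lost call cannot be told apart from that limit. Without the failing libraries, edgeR called 2 of 8 and 4.56% of all genes, the 2 being Meg3 (-1.96) and Kcnq1ot1 (-1.23). Leaving out any 1 of D1 CS replicate 5, D1 SC replicates 2, 4 and 9 and D1 SS replicate 3 left 2 of 8 called, and leaving out D1 SC replicate 5 left 3, with Meg3 and Kcnq1ot1 called in all 37 such fits.

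**Figure D4:**
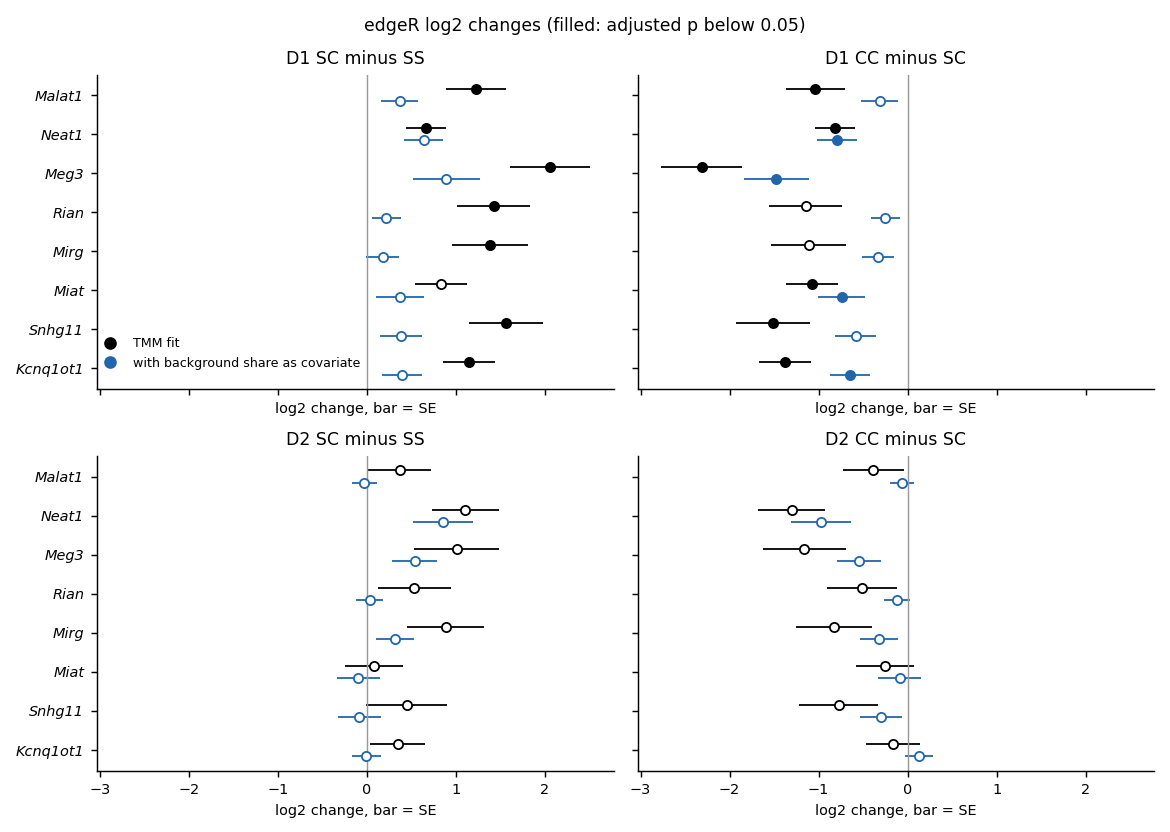
Fitted log2 differences with standard errors for the 8 genes in D1 SC minus SS, D1 CC minus SC, D2 SC minus SS and D2 CC minus SC. Black marks the TMM fit and blue the fit with background share as covariate, filled where the edgeR adjusted p was below 0.05. The Meg3 difference in D1 CC minus SC is filled in both fits (-2.31 and -1.48).

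In CPM not scaled by TMM, Neat1 had its highest D1 median in CS, the group in cocaine withdrawal given saline as challenge, whereas the other 7 genes had theirs in SC. Its levels were 4.15 to 14.9 CPM in CC (median 12.6, n = 10), 13.7 to 27.6 CPM in CS (median 17.3, n = 8), 6.15 to 36.0 CPM in SC (median 12.9, n = 9) and 9.14 to 20.2 CPM in SS (median 12.1, n = 10). Of the 10 CC libraries, 7 lay below the lowest CS library, and 7 of 8 CS libraries lay above the highest CC library. On the TMM scale of the fits the order differed, and the Neat1 median was highest in SC as for the other 7 genes, at 10.7 CPM in CC, 13.7 in CS, 18.7 in SC and 11.4 CPM in SS. CC against CS asks what a challenge does after a cocaine history, and there Neat1 was the 1 of 8 genes called, lower by edgeR at -0.73 ± 0.23 (log2 ± SE, adjusted p = 0.0369), against 0.0292% of 37721 genes called lower and 8.28% called higher. The call was lost without the libraries holding more Drd2 than Drd1 counts (-0.92 ± 0.33, edgeR adjusted p = 0.190) and under 6 of 7 other settings, with differences of -0.70 to -0.82 and edgeR adjusted p of 0.0534 to 0.443, and kept under DESeq2 (adjusted p = 0.0167). It was also lost without any 1 of 9 libraries (D1 CC replicates 1, 3 and 7, D1 CS replicates 2, 3, 4, 5 and 7, and D1 SS replicate 3). In background-subtracted CPM, Neat1 averaged 8.31 ± 3.55 CPM in D1 CC and 22.4 ± 9.34 CPM in D1 CS (SD, n = 10 and 8, ratio 0.371, exact permutation p = 0.000114, adjusted p = 0.0463), a comparison added after its values were seen, in which 1.54% of the 15969 genes were called lower and 8.49% higher. With passing libraries it had a ratio of 0.499 and an exact permutation adjusted p of 0.284 (n = 7 and 6). That test had only 1716 permutations, so the lost call cannot be told apart from its coarse p-values.

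In D2 nuclei Neat1 was again higher at the median in CS and SC than in CC and SS, with no call. Its medians were 15.2 CPM in CC, 20.9 in CS, 23.4 in SC and 12.9 CPM in SS (n = 10, 10, 9 and 9). These include D2 CC replicate 10 and D2 CS replicates 6 and 9, libraries of only 19825, 26297 and 19980 counts. Neat1 stood at 28.5, 0 and 32.5 TMM-scaled CPM in them, and the D2 edgeR fits with TMM scaling kept them. Of the 9 SC libraries, 8 lay above the SS median, and of the 10 CC libraries 9 lay below the SC median. The fitted difference was 1.11 ± 0.38 in SC minus SS (log2 ± SE, edgeR p = 0.0053, adjusted p = 0.834) and -1.30 ± 0.38 in CC minus SC (edgeR p = 0.0012, adjusted p = 0.988). The interaction, the challenge effect after cocaine minus that after saline, was -2.10 ± 0.54 for Neat1 in D2 (edgeR adjusted p = 0.453) and -1.39 ± 0.32 in D1 (edgeR adjusted p = 0.0527). In D1 it was called with RLE scaling (-1.30, edgeR adjusted p = 0.0369), with the background share as covariate (-1.36, edgeR adjusted p = 0.0269) and with DESeq2 (-1.30, adjusted p = 0.00799), and not with total-count scaling (-0.93, edgeR adjusted p = 0.143). With no filter, without failing libraries and with the replicate block, edgeR called 0 of all genes in the D1 interaction, Neat1 included. Without the libraries holding more Drd2 than Drd1 counts Neat1 stood at -1.50 ± 0.47 there (log2 ± SE, edgeR adjusted p = 0.542). In background-subtracted CPM, Neat1 averaged 32.0 ± 19 CPM in D2 SC and 14.7 ± 8.83 CPM in D2 SS (SD, n = 9 each, ratio 2.18, exact permutation p = 0.0165, adjusted p = 0.145). It averaged 14.3 ± 7.87 CPM in D2 CC (n = 9, ratio to SC 0.448, exact permutation p = 0.0121, adjusted p = 0.890) and 27.8 ± 17.3 CPM in D2 CS (n = 8, ratio of CC to CS 0.516, exact permutation p = 0.0495, adjusted p = 0.801). In these 3 D2 comparisons no gene of the 15969 passed the exact test, with 19.8, 4.28 and 5.7% at an unadjusted p below 0.05. The oligodendrocyte markers, 10 of 10 counted, summed to 385 to 532 CPM in D1 CC (median 434) and 137 to 445 CPM in D1 CS (median 411), and to medians of 335 CPM in D2 CC, 406 in D2 CS, 401 in D2 SC and 431 CPM in D2 SS. The astrocyte markers, 9 of 9 counted, summed to 598 to 765 CPM in D1 CC (median 686) and 616 to 1114 CPM in D1 CS (median 699.6), and to medians of 766 CPM in D2 CC, 826 in D2 CS, 848 in D2 SC and 740 CPM in D2 SS, the same order of groups as Neat1 in D2. In D1 it was not the same order, as the astrocyte medians were 886 CPM in SC and 700.1 CPM in SS, both above that in CS. In D1 CC against CS edgeR called 4 of 10 oligodendrocyte, 4 of 7 D1 neuron, 3 of 6 D2 neuron and 0 of 9 astrocyte markers higher and 0 of them lower. Their part in the Neat1 levels was not tested.

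**Figure D5:**
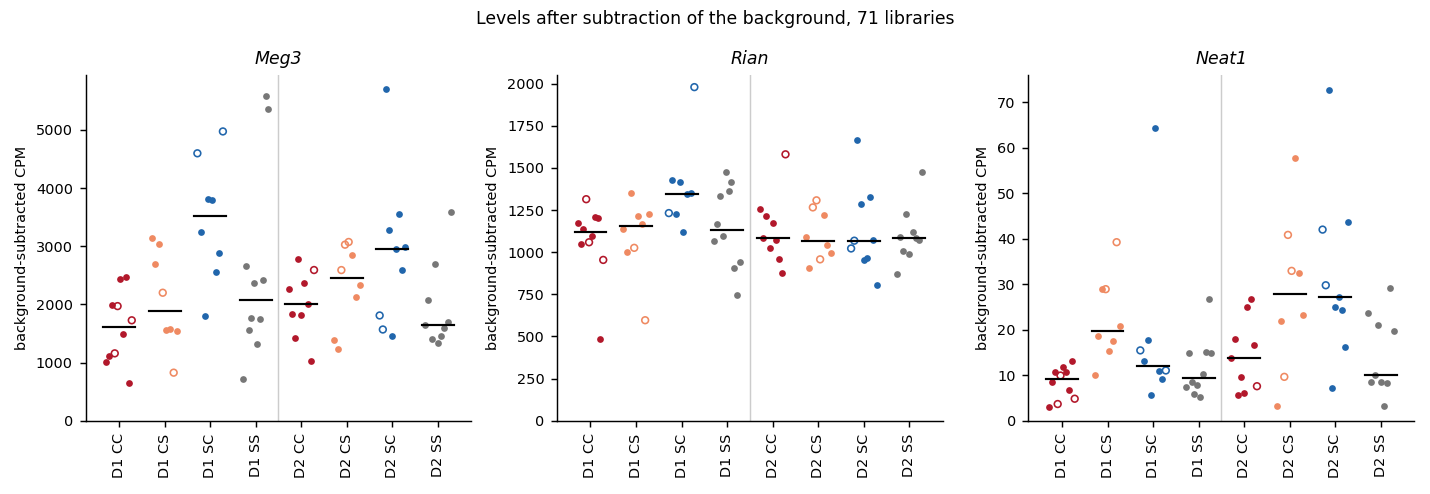
Background-subtracted CPM of Meg3, Rian and Neat1 by group, 1 point per library with at least 1000000 counts, bars at the medians. Neat1 medians are 9.20 CPM in D1 CC, 19.6 in D1 CS, 12 in D1 SC and 9.43 CPM in D1 SS, and 13.8, 27.9, 27.2 and 10.0 CPM in the same order in D2.

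The remaining comparisons gave no call among the 8 genes by edgeR with TMM scaling; in the D1 interaction other settings called up to 3. In D1 CS minus SS edgeR called 0 of 8 (0% of all genes, 1 of 8 at an unadjusted p below 0.05, DESeq2 0), and that 1 was Neat1 (0.57 ± 0.23, edgeR adjusted p = 1.00), for which 8 of 8 CS libraries lay above the SS median. D1 CC minus SS gave 0 of 8 (0% of all genes, 0 at an unadjusted p below 0.05, DESeq2 0), with differences from -0.26 to 0.28. The D1 interaction gave 0 of 8 (0% of all genes, 5 of 8 at an unadjusted p below 0.05, DESeq2 3), with Meg3 at -2.19 ± 0.63 (edgeR adjusted p = 0.0582). Beside those 3, DESeq2 called 2893 of 37053 genes in that interaction. In D2 nuclei SC minus SS gave 0 of 8 (0% of all genes, 3 of 8 at an unadjusted p below 0.05, DESeq2 0), with all 8 differences positive under TMM (Miat negative under RLE and total-count scaling, with the covariate and with DESeq2, and Malat1, Snhg11 and Kcnq1ot1 negative with the covariate) and Meg3 at 1.01 ± 0.48. Meg3 had medians of 1477 CPM in D2 SC and 771 CPM in D2 SS, with 8 of 9 SC libraries above the SS median. In background-subtracted CPM, Malat1, Miat, Snhg11 and Kcnq1ot1 were lower in D2 SC than in D2 SS, with ratios of 0.926, 0.922, 0.952 and 0.989 and no call. D2 CC minus SC gave 0 of 8 (0% of all genes, 2 of 8 at an unadjusted p below 0.05, DESeq2 0), with all 8 negative under TMM (Kcnq1ot1 positive under RLE and total-count scaling, with the covariate and with DESeq2, and Miat positive under RLE scaling) and Meg3 at -1.16 ± 0.46. D2 CS minus SS (0.0859% of genes called), D2 CC minus SS (0%), D2 CC minus CS (0.252%) and the D2 interaction (0%) each gave 0 of 8 by edgeR and by DESeq2, with 1, 0, 1 and 2 of 8 at an unadjusted p below 0.05.

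Between the lines, D1 against D2 nuclei, edgeR and DESeq2 called 0 of 8 genes in each treatment group. In SS the differences ran from -0.47 to -0.06 with 0 of 8 at an unadjusted p below 0.05 by edgeR (0.0255% of 39250 genes called). In SC (1.17% called) 2 of 8 had an unadjusted p below 0.05, Neat1 lower in D1 (-0.92, edgeR adjusted p = 0.180) and Miat higher (0.66). In CS (3.59% called) it was 4 of 8 and in CC (0.0204% called) 1 of 8. The response to the first challenge, D1 SC minus SS less D2 SC minus SS, differed for 0 of 8 genes by either tool, with 0 at an unadjusted p below 0.05 by edgeR (0.028% of genes called). The same held for the CS minus SS responses (0.0892% of genes called) and for the CC minus SS responses (0%), where DESeq2 gave 1 of 8 at an unadjusted p below 0.05. The range of 2 SE on each side of the difference in first-challenge response was -0.37 to 2.38 for Meg3 and -0.23 to 2.39 for Snhg11 (log2, edgeR), so neither like responses nor different ones were shown.

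The genes around the members were read from lists of neighbours and partners in the TMM fit; with the background share as covariate, 4 of all 37721 genes were called in D1 SC against SS. In the TMM fit, 9.7% of all genes were called higher in SC against SS and 7.86% lower in CC against SC, beside which the counts of these lists stand. Those shares are over genes of every level that passed the count filter, and the lists were not matched to them in level. Of 9 neighbours in and around the Dlk1-Dio3 domain, 3 were called higher in D1 SC than in D1 SS by edgeR, Rtl1 (1.45), the paternally expressed retrotransposon-like gene, Begain (1.03) and Ppp2r5c (0.87), and 0 were called in CC against SC. Of 11 neighbours of Kcnq1ot1, Kcnq1 (0.66 ± 0.18, edgeR adjusted p = 0.0152) and Osbpl5 (1.07) were called higher in SC, and the same 2 were called lower in CC against SC (-0.93 and -1.17). Of 11 neighbours of Malat1 and Neat1 only Ltbp3 was called in SC against SS (0.82), and 0 in CC against SC. Among 13 paraspeckle proteins, which bind Neat1, 4 were called higher in SC, with Sfpq at 1.43, Taf15 at 1.29 and Smarca4 at 0.91, and 1 lower in CC (Taf15, -1.36). Among 20 nuclear speckle and splicing proteins 9 were called higher in SC, with Srrm2 at 1.73, Son at 1.62 and Qk at 1.2, and 2 lower in CC (Qk -0.95 and Srsf5 -1.37). Elac2, an RNase Z that trims the tRNA-like RNA released from the Malat1 3′ end, was 1 of 9 end-processing and decay genes called, higher in SC (2.14) and lower in CC (-1.75).

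Of 48 further long noncoding RNA genes tested, 10 were called higher in D1 SC and 0 lower, among them Lncpint (1.73), Snhg14 (1.59), Sox2ot (1.1) and Dlx6os1 (1.09). Against SC, 8 of the 48 were called lower in CC, with Snhg14 at -1.82, Lncpint at -1.55, Sox2ot at -1.27 and Jpx at -1.01. Over all 8610 genes of long noncoding biotypes, 568 were called higher and 166 lower in SC, with a median of -0.23, against a median of 1.31 for the 8 genes and -0.07 for all genes tested. The larger sets hold every gene that passed the count filter and were not matched to the 8 genes in expression level. These medians therefore do not set the 8 apart from other genes of like level. The median of the 8 was -1.13 in CC against SC, and that of all genes 0.19. Markers of other cells moved in the same comparison: 5 of 10 oligodendrocyte markers and 3 of 9 astrocyte markers were called higher in SC, beside 7 of 10 medium spiny neuron markers. Also called higher in SC were 2 of 7 cortical glutamatergic neuron markers, Neurod2 (1.59) and Slc17a7 (1.57), 1 of 6 D2 neuron markers, Drd2 (1.56), and 1 of 8 microglia markers, P2ry12 (0.94). Of 7 vessel and choroid plexus markers 1 was called lower, Ttr (-2.06), and 0 of 7 D1 neuron and 0 of 8 interneuron markers were called. The summed oligodendrocyte markers ranged from 142 to 1065 CPM in D1 SC and from 316 to 493 CPM in D1 SS, and the summed medium spiny neuron markers from 3499 to 9421 CPM in D1 SC and from 3254 to 5702 CPM in D1 SS. Their part in the differences of the 8 genes was not tested.

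The genes whose TMM-scaled log2 CPM was most like each member over the 71 libraries, among 11993 candidates, were read as a description, since all points share background and depth. Rian was closest to Fubp1 (Spearman's rho 0.981), Usp33 (0.980) and Klhl7 (0.977), and Snhg11 to Usp48 (0.967). Malat1 was closest to Arglu1 (0.960), a splicing-related gene, Mirg to Prpf40b (0.961) and Kcnq1ot1 to Gabra2 (0.941). Meg3 was closest to Odf2 (0.937) and Miat to Meg3 itself (0.860). Neat1 had the weakest best match, Wdfy2 (0.762), followed by Fmnl3 (0.739) and Tcf4 (0.715). Among the members, Malat1 and Rian had rho 0.947 and Rian and Mirg 0.938, whereas Neat1 and Malat1 had rho 0.164.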

How the data were processed

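RNA from sorted nuclei was sequenced in 75 libraries. The authors deposited a table of counts per gene and a table of FPKM values. Per the submitters' processing notes, featureCounts and DESeq2 were used and the build was mm10; versions and the strand setting of counting are not given. The deposited FPKM values served only to recover gene lengths, which equalled the full gene span in GENCODE M21 for 54271 of 54271 identifiers (tolerance 1 base). Per the labels, libraries were made with a stranded total RNA kit. The 8 genes and the lists of neighbours, partners and markers were chosen with earlier results of these data known, and nothing here is independent of those.

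Per line, edgeR 4.0.16 under R 4.3.3 fitted the counts (quasi-likelihood test, TMM, low counts filtered by group, Benjamini-Hochberg adjustment over 37721 genes in D1 and 36090 in D2; 39250 across lines). DESeq2 1.42.0, RLE scaling, total-count scaling, no filter, the replicate number as a block, the background share as covariate, and fits without failing libraries or without D1 libraries holding more Drd2 than Drd1 counts were alternatives. A library failed where its total was under the line's median divided by 3, where genes with at least 10 counts or its median correlation over 15000 genes lay over 4 scaled MAD under the line's median, or where its Drd1 to Drd2 ratio lay on the other line's side. Background was the count density in 1971 receptor genes (14809 kb), which may itself hold some transcription; it was scaled by gene length and subtracted from genes and totals. Background-subtracted CPM was tested by exact two-sided permutation over libraries for 15969 genes with a mean of at least 8 CPM. Genes were named by the listed members, by up to 4 list genes of lowest p and by the 3 most alike in rank correlation; some genes of the lists are not reported here.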

Additional observations from a re-analysis of the deposited data

Results flagged for a closer look

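In 15 of 64 pairs of a gene and a group of deeper libraries, 1 library stood far from its group by Dixon's criterion, which chance meets in about 1 in 20 groups. These pairs share libraries, so they are not 15 separate events. D1 CS replicate 3 was the highest of its group in 4 genes: Meg3 at 2724 CPM (next 1198), Rian at 1212 CPM (next 500.2), Mirg at 162 CPM (next 62.5) and Snhg11 at 854 CPM (next 374). Its background share was 10.5%, against 53.6 to 69.8% in the other D1 CS libraries. D2 SS replicate 9 was the highest of its group in Malat1 at 8593 CPM (next 5649), Meg3 at 3393 CPM (next 1639), Rian at 1396 CPM (next 757) and Mirg at 153 CPM (next 70.7), with the lowest background share of D2 SS, 5.63%. D2 SC replicate 3 was the highest in Neat1 at 67.6 CPM (next 35.4) and Snhg11 at 1338 CPM (next 727), with a share of 8.80%.

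Neat1 reached 36.0 CPM in D1 SC replicate 6 (next 17.3), where the background share was the group's highest at 58.4%. Mirg reached 119 CPM in D1 SS replicate 6 (next 82.0), and Miat 46.3 CPM in D1 SS replicate 8 (next 19.5). The lowest values that stood apart were Miat at 5.28 CPM in D2 SC replicate 1 (next 11.8) and Kcnq1ot1 at 41.0 CPM in D1 CS replicate 7 (next 87.2), and D1 CS replicate 7 had the highest share of all, 69.8%. The part of the background share in these values was not tested.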

How the results depend on the processing

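In D1 SC against SS, 7 of 8 genes were called, 2 without failing libraries, 0 with the background share as covariate and 0 with total-count scaling. In D1 CC against SC, 6 were called, 2 without failing libraries, 3 with total-count scaling, 7 with RLE scaling and 8 with DESeq2. In D1 CC against CS, 1 was called and 0 under RLE scaling, no filter, without failing libraries, the block, the covariate and total-count scaling. The D1 interaction gave 0, with 2 under RLE scaling, 1 with the covariate and 3 with DESeq2. Of all genes, 0 were called there with TMM scaling and no covariate. Under RLE scaling it was 1193 of 37721, with the covariate 2712 of 37721 and with DESeq2 2893 of 37053. Leaving out 1 D1 library gave 1 to 8 calls in SC against SS, 2 to 8 in CC against SC, 0 to 2 in CC against CS, 0 to 3 in the interaction and 0 in CS or CC against SS. Without the D1 libraries holding more Drd2 than Drd1 counts, edgeR called 0 of 8 and 0 of all 39325 genes in each D1 comparison, with 1203 to 5553 of all genes at an unadjusted p below 0.05. The cause was not tested. That fit, total-count scaling, the leave-one-out fits other than of D1 SC and SS libraries and the background-subtracted measure, were chosen after seeing the data.

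Genes called in D1 SC against SS numbered 4277, with 3068 under RLE scaling, 2981 without failing libraries, 1880 with the block, 4 with the covariate, 267 with total-count scaling and 5419 with DESeq2. In D1 CC against SC they numbered 3955, with 1747 without failing libraries, 1469 with the block, 7185 with the covariate and 7281 with DESeq2. Correlations of deviations between same-numbered libraries ran from -0.82 to 0.81 in D1 and from -0.82 to 0.82 in D2 and were over 0.1 in 18 of 49 and 23 of 48 pairs, not in every pair, so the numbers were not taken to pair libraries; with the replicate block 5 genes of the 8 were called in SC against SS, 6 in CC against SC and 0 in CC against CS.

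Signs turned for these values. In D2 SC minus SS (log2), Miat was at -0.090 under RLE scaling, -0.095 with the covariate, -0.075 with DESeq2 and -0.11 with total-count scaling, and with the covariate Malat1 was at -0.032, Snhg11 at -0.084 and Kcnq1ot1 at -0.0068. In background-subtracted CPM without failing libraries, Kcnq1ot1 differed by -0.843 in D1 SC minus SS, Miat by 0.852, Snhg11 by 8.55 and Kcnq1ot1 by 10.6 in D2 SC minus SS, Malat1 by -476.5 and Rian by -70.6 in D2 CC minus SC, and Kcnq1ot1 by -4.74 in D2 CC minus CS. None of these had been called. At the depth of 1000000 counts and over, Neat1, Miat and Kcnq1ot1 lay near background, which limits their values.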
